A study of Mus musculus with 22 samples.

Results

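Serum RNA from mice given 10 Gy of X-rays was compared with serum RNA from mice given 0 Gy. All 6 serum arrays were taken, of 22 in the series, and every one of the 1881 mouse microRNAs (miRNAs) printed on them was read. The mice were males aged 8 weeks, with no allele or other agent named in the labels. The irradiated mice received 10 Gy at 1.0 Gy per minute, and the controls 0 Gy. Blood came from the heart and was left to clot in serum separator tubes, and total RNA of the serum was labelled with Cy3. The 0 Gy group held 2 arrays and the 10 Gy group 4. The labels give neither the time between irradiation and bleeding nor whether each sample was a separate mouse, so the p-values measure only the spread between these samples, which may be technical. The other 16 arrays held small intestine and feces of mice at both doses, 8 arrays each.

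miRNAs are short RNAs that guide Argonaute proteins to messenger RNAs, mainly through the seed at bases 2 to 8. In blood they circulate bound to proteins or inside vesicles after release from blood cells and tissues, so a serum level mixes many sources. Red cells are rich in miR-451a and miR-486a-5p, and their breakage during bleeding or clotting adds both to serum. miR-375-3p is made mainly by pancreatic islets and by hormone-producing cells of the gut, and radiation injures both the blood-forming marrow and the gut lining. In serum, fewer cells that release a miRNA and less release by each cell cannot be told apart.

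Between the doses, 9 of 193 tested miRNAs passed at an adjusted p below 0.05 (limma, Benjamini-Hochberg), which is 4.66% of those tested. Higher at 10 Gy were 2 of them (1.04%), miR-375-3p and miR-574-3p. Lower at 10 Gy were 7 (3.63%), and these were miR-451a, miR-344i, miR-7031-5p, miR-222-3p, miR-486a-5p, miR-30d-5p and miR-1198-5p. A miRNA was tested when it was detected on at least 2 of the 6 arrays, and it counts as detected where the scanner software put 50% or more of the spots of any probe well above background. The arrays of the doses did not overlap for any of the 9, as for 58 of all 193 tested (30.1%), of which 19 were higher and 39 lower at 10 Gy. Before adjustment 40 miRNAs were below 0.05, 13 higher and 27 lower. The median log2 change of all tested was -0.11, with 83 changes above 0 and 110 below. Under the other scalings, filters, summaries and fits, miR-451a and miR-486a-5p passed in 13 settings each (of 15 and 16 that gave a value), miR-344i in 12 of 15, miR-7031-5p in 11 of 15 and miR-375-3p in 11 of 16. miR-574-3p passed in 10 of 15, miR-1198-5p in 9 of 15, miR-30d-5p in 8 of 16 and miR-222-3p in 7 of 15.

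The mature sequences of the called miRNAs are shown first because their seeds name the messages each can pair with. Of the 9, 6 had an entry in the RefSeq table (GRCm38.p6 build). The seed is in capitals and each line reads 5′ to 3′. None of the 6 seeds is shared with another tested miRNA that had a sequence, and miRNAs that were not tested were not compared. miR-375-3p, miR-486a-5p and miR-30d-5p are given by name, and their seeds were not compared.
miR-574-3p: cACGCUCAugcacacacccaca
miR-451a: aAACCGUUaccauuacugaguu
miR-344i: aAGUCAGGcuccuggcugga
miR-1198-5p: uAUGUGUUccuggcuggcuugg
miR-7031-5p: cCUGAGAGgccugaaggguggga
miR-222-3p: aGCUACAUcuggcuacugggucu

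miR-574-3p lies at chr5:64970364-64970385 on the plus strand, within the spans of the genes Fam114a1 and Tlr6. miR-451a lies at chr11:78073186-78073207 (plus strand), in no other gene's span and next to Mir144, and miR-222-3p at chrX:19146901-19146923 (minus strand), next to Mir221. miR-7031-5p lies at chr5:121819246-121819268 (minus strand) within the span of Sh2b3. miR-1198-5p lies at chrX:7807142-7807163 (plus strand) within the span of Gripap1, and miR-344i at chr7:62085281-62085300 (minus strand) in no other gene's span. Whether a span means an exon, an intron or the same strand is not given by the annotation used here. The sequences of miR-344i and miR-1198-5p share the run UCCUGGCUGG, which no other tested sequence holds. A shared run of 10 bases or more was found in 0.273% of the 13530 pairs of tested miRNAs with a sequence, whose median was 4 bases. Both were lower at 10 Gy, and how far RNA of either reaches the other's probes was not tested.

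The serum arrays carried little signal. In order, 0 Gy replicates 1 and 2 had 219 and 175 detected miRNAs, and 10 Gy replicates 1 to 4 had 176, 137, 174 and 131. The means were 197 ± 31.1 (SD, n = 2) and 154.5 ± 23.8 (n = 4), with an exact two-sided permutation p of 0.2, in a design that cannot go below 0.0667 and so cannot show a difference. The 75th percentile of the signal, over the 121 miRNAs detected on all 6 arrays, was 516.9 and 223.5 units at 0 Gy and 307.7, 150.7, 259.5 and 128.2 at 10 Gy (exact permutation p = 0.267). All serum arrays shared 1 slide, with 0 Gy in column 2 and 10 Gy in columns 3 and 4, so dose and slide column cannot be told apart. The dimmest arrays, 10 Gy replicates 2 and 4, were those of column 4. With those 2 arrays left out no miRNA passed (17 below an unadjusted 0.05), while the changes of the called miRNAs stayed about as large, such as -2.67 for miR-344i, 2.66 for miR-574-3p and -1.49 for miR-486a-5p. Both rows held both doses, but a row has 1 control and 2 irradiated arrays. A fit within a row takes its spread from the irradiated arrays and has little power, so its changes are given below without calls. The same holds for calls lost with 1 control left out, where the lone control is assumed to vary like the irradiated arrays. Precision is limited by the small number of arrays. Arrays correlated with each other at r from 0.883 to 0.971 across the tested miRNAs.

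**Figure D1:**
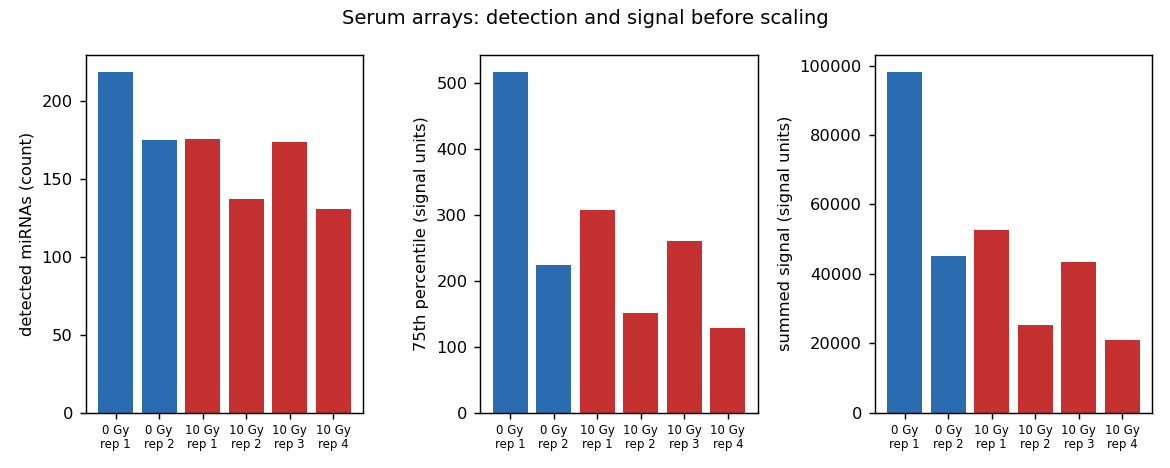
Detected miRNAs (count), 75th percentile of the signal and summed signal of detected miRNAs (both in linear signal units, before scaling) on each serum array, 0 Gy in blue and 10 Gy in red. The 10 Gy replicates 2 and 4, in slide column 4, are the lowest of the 6 in each panel, and 0 Gy replicate 1 is the highest.

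Few miRNAs for which blood is known were measurable. Of 100 miRNAs on the array that belonged to lists of blood cells, tissues, miRNA families and blood radiation response, 72 were detected on no serum array, and 43 of those were detected on all 8 intestine arrays. Among the undetected were miR-16-5p, miR-21a-5p, miR-126a-3p and let-7a-5p, all abundant in blood or vessels, and miR-122-5p, the main miRNA of liver. None of the 6 miR-34 family members on the array, targets of p53, was detected on a serum array. The brightest serum signals came from miR-5126, miR-8110, miR-3473b, miR-486a-5p, miR-709, miR-3473f, miR-3960 and miR-5128. Of these 8, miR-486a-5p passed. Median GC content was 52.2% over the 1608 array miRNAs with a sequence, 60.9% over the 165 tested and 66.7% over the 15 with a sequence among the 20 brightest. Across the 165, GC content and log2 change had a Pearson r of 0.12 and a Spearman rho of 0.06, as a description of miRNAs that share arrays and probes.

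Among the higher miRNAs, the log2 level of miR-375-3p was -2.74 and -1.69 at 0 Gy, and -0.45, 0.71, 1.00 and 0.29 in 10 Gy replicates 1 to 4. A log2 level is the signal relative to the 75th percentile of its array, raised to a floor of -4.63. Every irradiated array lay above both controls. The change was 2.61 ± 0.47 (SE, n = 2 against 4, limma adjusted p = 0.0280), or 6.08-fold, with a 95% interval of 1.50 to 3.71, and it was 2.87 within row 1 and 2.34 within row 2. Its 2 detected probes gave 2.60 and 2.61. It was detected on all 6 arrays, and the other arm, miR-375-5p, on none. It passed in 2 of 6 fits that left out 1 array each, with changes from 2.08 to 3.13, and the call was lost when either control or 10 Gy replicate 2 or 4 was left out.

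For miR-574-3p, whose blood levels have been described as responding to radiation, the log2 levels were -4.61 and -4.11 at 0 Gy and -2.36, -2.15, -1.04 and -1.79 at 10 Gy. All irradiated arrays were above the controls, which lay near the floor. The change was 2.52 ± 0.39 (SE, n = 2 against 4, limma adjusted p = 0.0176), or 5.75-fold, with a 95% interval of 1.59 to 3.45, and it was 2.35 within row 1 and 2.70 within row 2. It was detected on 1 of 2 control arrays and on all 4 irradiated ones, so the control level rests on dim spots. Its 3 detected probes gave changes of 0.51 to 1.77 when taken singly, below the change of their sum. The change was 0.75 and still passed with normexp, another background correction. The call was lost when either control or 10 Gy replicate 4 was left out, while the change stayed between 2.26 and 2.77. Its hairpin partner miR-574-5p, detected on all 6 arrays, had log2 levels of -1.65 and -2.66 at 0 Gy and -1.78, -3.01, -2.84 and -1.45 at 10 Gy, which overlap. The change of the partner was -0.11 ± 0.53 (SE, limma adjusted p = 0.916), and the difference between the arms was not tested.

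**Figure D2:**
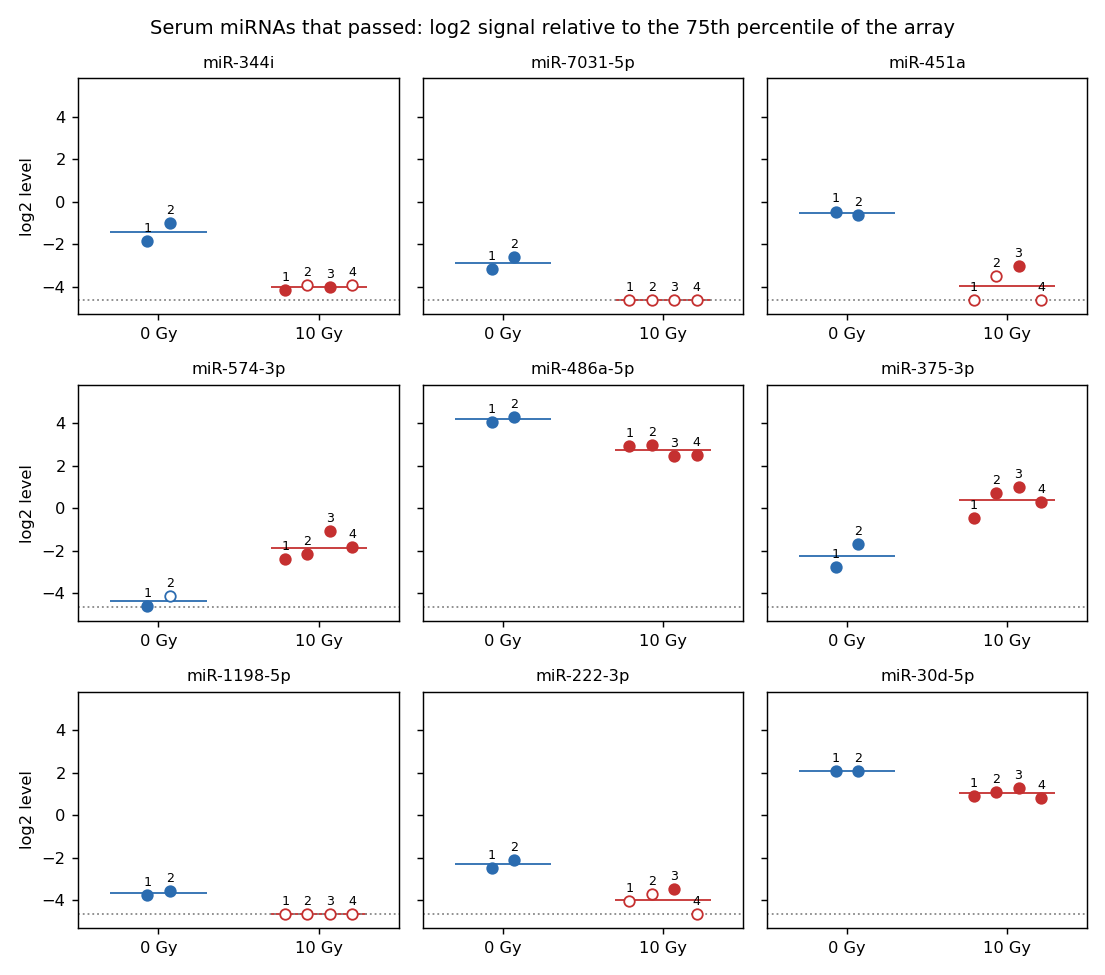
Log2 level (signal relative to the 75th percentile of the array) of the 9 called miRNAs on each serum array, numbered by replicate, 0 Gy in blue and 10 Gy in red. Open points were not detected, lines are group means and the dotted line is the floor of -4.63. In all 9 panels the doses do not overlap, and miR-7031-5p and miR-1198-5p lie at the floor on every 10 Gy array.

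Of 9 miRNAs of the red blood cell list on the array, 5 were detected on no serum array and 4 were tested. miR-451a and miR-486a-5p passed as lower and none as higher, where 3.63% of all tested passed as lower, and the median change was -1.55 against -0.11 over all tested. All 4 changes were below 0, although with normexp miR-25-3p stood at 0.01. miR-451a, which matures through cutting by Argonaute itself and fills maturing red cells, had log2 levels of -0.46 and -0.63 at 0 Gy and -4.63, -3.52, -3.04 and -4.63 at 10 Gy. Both controls were far above the irradiated arrays, of which replicates 1 and 4 were at the floor and only replicate 3 was detected. The change was -3.41 ± 0.49 (SE, n = 2 against 4, limma adjusted p = 0.0152), and was -3.61 within row 1 and -3.20 within row 2. Its 2 detected probes gave -3.10 and -2.39. With either control left out it did not pass, although the change stayed between -3.71 and -3.18 over the 6 fits, and it was -0.91 with normexp, where it still passed.

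miR-486a-5p, processed from an intron of the erythroid gene Ank1 and the brightest of the list, had log2 levels of 4.07 and 4.32 at 0 Gy and 2.96, 3.00, 2.46 and 2.51 at 10 Gy. The irradiated arrays were all below the controls, and every array detected it. Before scaling its signal was 8698 and 4461 units at 0 Gy and 2392, 1206, 1426 and 729 at 10 Gy. The change was -1.46 ± 0.25 (SE, n = 2 against 4, limma adjusted p = 0.0239), a 2.76-fold lower level with a 95% interval of -2.05 to -0.88, and it was -1.09 within row 1 and -1.83 within row 2. Its 2 probes gave -1.48 and -1.45. It passed in 3 of 6 fits that left out 1 array each, and lost its call without either control or 10 Gy replicate 4. In those 6 fits its change ranged from -1.59 to -1.34. Red cell breakage during bleeding was not measured by any file used here, and its part in these values was not tested.

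The remaining tested red cell members share a seed, AUUGCAC, and belong to the miR-25 and miR-92 family, which is also made in many other cells.
miR-25-3p: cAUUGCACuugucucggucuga
miR-92a-3p: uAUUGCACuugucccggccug
miR-25-3p lies at chr5:138165332-138165353 (minus strand) within the span of Mcm7, next to Mir93 and Mir106b. Its log2 levels were -2.78 and -2.48 at 0 Gy and -4.63, -4.28, -3.48 and -4.63 at 10 Gy, all irradiated arrays lying below the controls. The change of -1.63 ± 0.36 (SE, limma adjusted p = 0.0505) did not pass. miR-92a-3p has copies at chr14:115044476-115044496 (plus strand) and chrX:52741854-52741874 (minus strand). Its levels were -1.12 and -0.38 at 0 Gy and -3.08, -1.43, -1.10 and -2.53 at 10 Gy, and 10 Gy replicate 3 overlapped the controls. Its change was -1.29 ± 0.58 (SE, limma adjusted p = 0.278). The other members, miR-16-5p, miR-486a-3p, miR-486b-3p and both arms of miR-144, whose gene neighbours that of miR-451a, were detected on no serum array. Summed over the tested members on the linear scale, the log2 level of the list ran from 4.18 to 4.43 at 0 Gy and from 2.57 to 3.09 at 10 Gy. That sum is almost all miR-486a-5p, by far the brightest member, and so says little of the others.

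miR-30d-5p, of a family found in nearly all tissues, had log2 levels of 2.07 and 2.07 at 0 Gy and 0.92, 1.10, 1.30 and 0.80 at 10 Gy. The controls were nearly equal and all irradiated arrays were lower. The change was -1.04 ± 0.22 (SE, n = 2 against 4, limma adjusted p = 0.0436), or 2.06-fold lower, and it was -1.06 within row 1 and -1.02 within row 2. Its 2 detected probes gave -1.07 and -1.01. It passed in 2 of 6 fits that left out 1 array each, the fits without 10 Gy replicate 1 or 3. Of the 8 miRNAs of the miR-29 and miR-30 families on the array, 4 were tested and 1 passed, as lower (3.63% of all tested did), with a median change of -0.95 against -0.11 over all tested. miR-30a-5p and miR-30e-5p share the seed GUAAACA, and miR-29a-3p, of another seed, is known to target collagen messages.
miR-30a-5p: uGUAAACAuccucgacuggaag
miR-30e-5p: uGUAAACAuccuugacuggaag
miR-30a-5p had log2 levels of 1.46 and 1.41 at 0 Gy and 1.21, 1.29, 1.80 and 1.02 at 10 Gy, which overlap, with a change of -0.11 ± 0.26 (SE, limma adjusted p = 0.837). miR-30e-5p had -2.24 and -2.25 at 0 Gy and -3.11, -3.58, -2.52 and -3.57 at 10 Gy. Its change of -0.95 ± 0.34 (SE, limma adjusted p = 0.194) did not pass and was 0.06 with normexp. The change of miR-29a-3p was -0.94 ± 0.37 (SE, limma adjusted p = 0.231).

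miR-222-3p, enriched in endothelium and known to repress the receptor Kit, had log2 levels of -2.48 and -2.11 at 0 Gy and -4.05, -3.71, -3.48 and -4.63 at 10 Gy. All irradiated arrays were lower than the controls and only replicate 3 was detected. The change was -1.67 ± 0.35 (SE, n = 2 against 4, limma adjusted p = 0.0436), and was -1.40 within row 1 and -1.94 within row 2. Its 2 detected probes gave -1.28 and -1.09. With normexp it was -0.02 and did not pass, and the call held in 1 of 6 fits that left out 1 array each, the one without 10 Gy replicate 3. Its cluster partner miR-221-3p and both arms of miR-126a, the other endothelial members, were detected on no serum array.

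The dim miR-344i had log2 levels of -1.86 and -0.99 at 0 Gy and -4.17, -3.94, -4.02 and -3.90 at 10 Gy. The irradiated arrays lay close together and well below the controls, and replicates 1 and 3 detected it. The change was -2.58 ± 0.28 (SE, n = 2 against 4, limma adjusted p = 0.0069), with a 95% interval of -3.24 to -1.93, and it was -2.20 within row 1 and -2.97 within row 2. Its 2 detected probes gave -2.31 and -1.54. It passed in all 6 fits that left out 1 array each, with changes from -3.02 to -2.15, and was -0.38 without a call with normexp. miR-1198-5p, which shares the run of 10 bases with it, had levels of -3.76 and -3.58 at 0 Gy and was at the floor on all 4 arrays at 10 Gy. The measured group means were -3.67 and -4.63, at least a 1.60-fold difference (limma adjusted p = 0.0341). As the irradiated values are tied at the floor without spread, that p-value depends on the floor. miR-1198-5p was tested only because both controls detected it. With the floor multiplied by 2 the call was lost. Within rows the fitted changes were -0.87 and -1.05. The call did not hold with 0 Gy replicate 2, or with 10 Gy replicate 2 or 4, left out, and the change turned to 0.070 with normexp.

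miR-7031-5p had log2 levels of -3.17 and -2.61 at 0 Gy and was at the floor on every 10 Gy array. No irradiated array detected it, while both controls did. The measured means of -2.89 and -4.63 bound the difference at 1.25-fold or more (limma adjusted p = 0.0103). Its irradiated values are tied at the floor without spread, and it was tested because both controls detected it. That p-value therefore depends on the floor, and leaving out an irradiated array cannot move the change. With the floor multiplied by 2 it did not pass. For such a miRNA the fold is a lower bound, the control mean against the higher of the lowest detected signal and the probe's own on each irradiated array, taken per probe. The fitted change was -1.46 within row 1 and -2.02 within row 2, and the 2 detected probes taken singly gave -0.71 and -0.61. It passed in all 6 fits that left out 1 array each, and was -0.01 without a call with normexp. It belongs to a block of consecutively numbered miRNAs, many of them cut from short introns, of whose 206 5p arms 40 were tested. Of those 40, 1 passed, as lower (3.63% of all tested did), and their median change was -0.18. Of the 204 matching 3p arms, 2 were tested and none passed.

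Detection itself separated the doses for few miRNAs. Both control arrays and no irradiated array detected 6, which were miR-7031-5p, miR-1198-5p, miR-6988-5p, miR-150-3p, miR-149-5p and miR-125b-5p. None was detected on all 4 irradiated arrays and no control. Of those 6, miR-149-5p had log2 levels of -4.53 and -3.51 at 0 Gy and -4.25, -3.16, -3.76 and -2.97 at 10 Gy, so its scaled levels overlapped although the detection calls did not. miR-150-3p, the lesser arm of a lymphocyte miRNA, had -4.28 and -2.68 at 0 Gy and the floor at 10 Gy, a difference of at least 2.22-fold that did not pass (limma adjusted p = 0.194). The main arm, miR-150-5p, was detected on no serum array. The brightness of the arrays moves with detection, and its part in these calls was not tested.

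**Figure D3:**
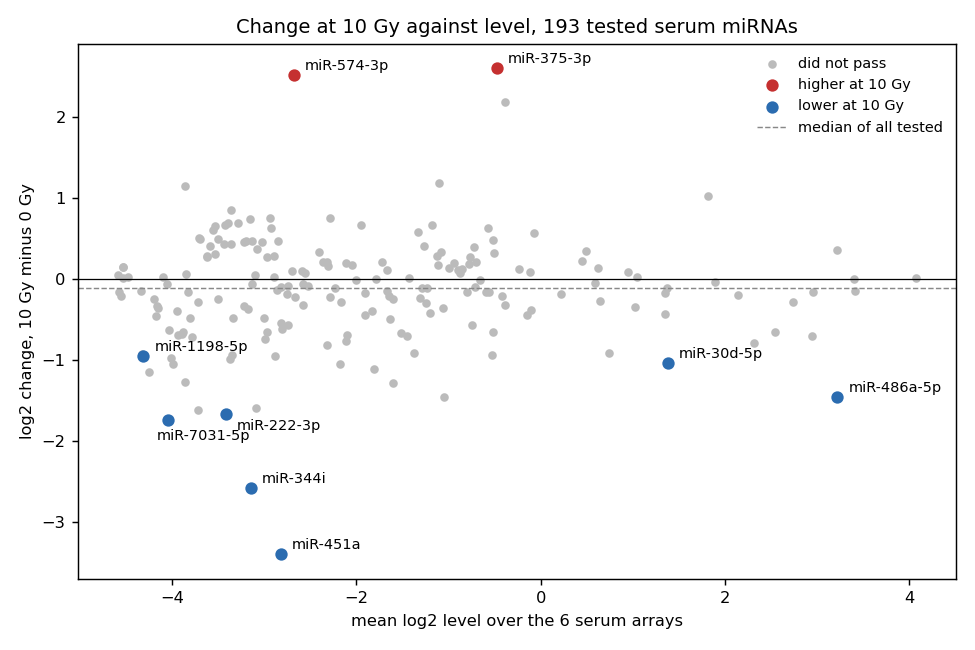
Log2 change at 10 Gy minus 0 Gy (vertical axis) against the mean log2 level over the 6 serum arrays (horizontal axis) for the 193 tested miRNAs, with those called higher in red and lower in blue. miR-486a-5p and miR-30d-5p are the called miRNAs with mean levels above 0, and the dashed line is the median change of -0.11.

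Of 23 miRNAs on the list for radiation response in blood, 10 were tested, 2 passed as higher (1.04% of all tested did) and none as lower, with a median change of 0.57 against -0.11 over all tested. That median was -0.20 without scaling between arrays. The 2 that passed, miR-375-3p and miR-574-3p, are all the higher calls. This list, like the others, was chosen with earlier results of these data known, so its share and median are descriptions only. miR-24-3p, made from clusters that also hold a miR-23 and a miR-27 gene, had log2 levels of -2.04 and -1.67 at 0 Gy and 0.08, -0.63, 1.42 and 0.48 at 10 Gy. All irradiated arrays were above the controls, and the change of 2.19 ± 0.52 (SE, limma adjusted p = 0.0617) did not pass. For miR-23a-3p the levels were -0.90 and -1.08 at 0 Gy and -0.81, -0.83, 1.01 and -0.81 at 10 Gy. Replicate 3 stood far above the other irradiated arrays, which were just above the controls, and the change was 0.63 ± 0.55 (SE, limma adjusted p = 0.599). miR-27a-3p was detected on no serum array, and miR-342-3p, a leukocyte miRNA, changed by 0.57 ± 0.35 (SE) with overlapping arrays and did not pass (limma adjusted p = 0.478).

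**Figure D4:**
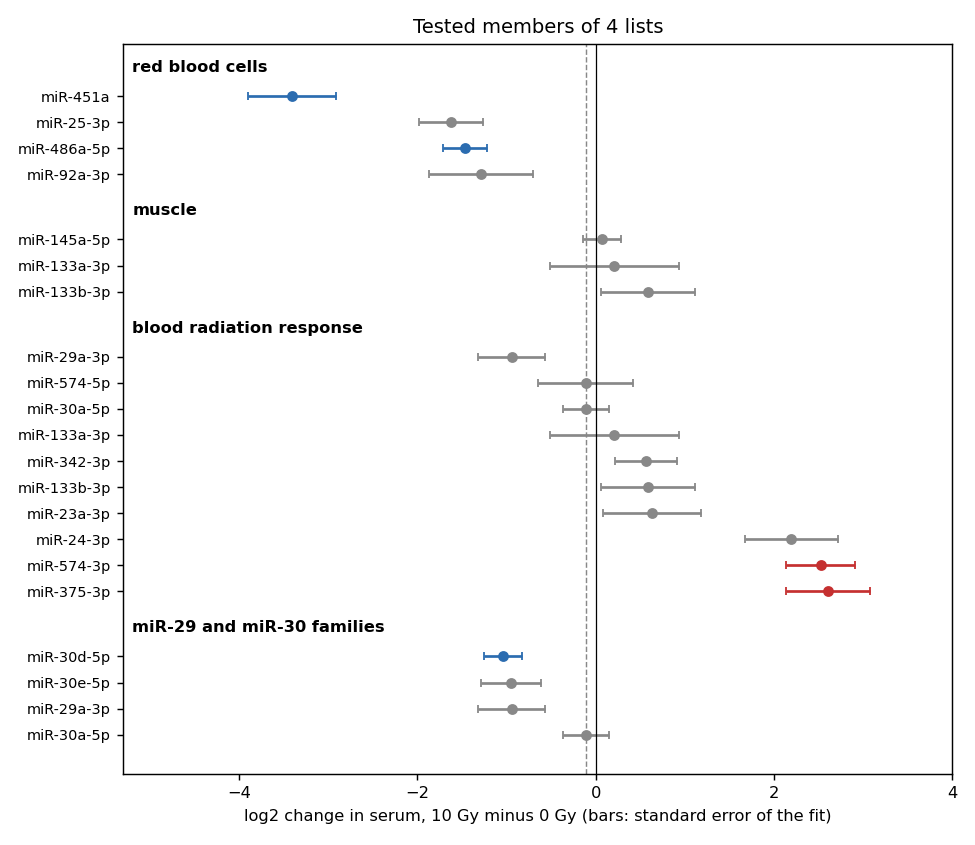
Log2 change at 10 Gy minus 0 Gy with the standard error of the fit for the tested members of 4 lists, in red where called higher, blue where called lower and grey where not called. The 4 red cell members lie left of the dashed median of -0.11, and the blood radiation response list runs from -0.94 to 2.61.

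Members of the remaining lists gave no further calls. The 3 tested muscle miRNAs had a median change of 0.21, and its sign turned with the 75th percentile over all miRNAs (-0.005) and without scaling (-0.57). miR-133a-3p had levels of -2.48 and -2.52 at 0 Gy and -3.30, -0.96, -1.53 and -3.37 at 10 Gy, so 2 irradiated arrays were above and 2 below the controls. In the platelet list miR-24-3p and miR-22-3p were tested, and miR-22-3p had a change of -0.03 ± 0.26 (SE, limma adjusted p = 0.960). Of 13 epithelial miRNAs, 11 were detected on no serum array, among them miR-192-5p, miR-215-5p and all miR-200 family members of the list. The others were miR-375-3p, described above, and miR-378a-3p, whose levels were -1.23 and -2.02 at 0 Gy and -0.60, -1.06, -1.02 and -1.14 at 10 Gy. Its change was 0.67 ± 0.29 (SE, limma adjusted p = 0.254). No other pancreatic miRNA (miR-7a-5p, miR-216a-5p, miR-216b-5p or miR-217-5p) and no liver miRNA was detected in serum. Of the neuronal list, miR-138-5p was tested (0.61 ± 0.34, SE) and did not pass (limma adjusted p = 0.409). None of 9 let-7 family members and 2 of 58 members of the large rodent family with miR-466 and miR-669 were tested, and neither passed.

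Among miRNAs that did not pass, some had doses that did not overlap. miR-125a-3p had log2 levels of -1.16 and -0.98 at 0 Gy and -1.80, -2.41, -2.42 and -2.10 at 10 Gy, all lower, with a change of -1.11 ± 0.25 (SE, limma adjusted p = 0.0505). miR-6931-5p was higher on every irradiated array, with 1.12 and 1.13 against 1.78, 2.31, 2.09 and 2.45, and a change of 1.03 ± 0.24 (SE, limma adjusted p = 0.0617). Its signal before scaling was 1127 and 491 units at 0 Gy and 1059, 749, 1106 and 702 at 10 Gy, which overlap. miR-193b-3p, at 1.19 ± 0.34, miR-5622-3p, at -1.59 ± 0.41, and miR-140-3p, an abundant miRNA of cartilage, at -1.46 ± 0.48 (SE each), did not overlap between doses either (limma adjusted p = 0.117, 0.0791 and 0.194). The bright miR-3473f had levels of 3.58 and 3.26 at 0 Gy and 2.63, 2.80, 2.83 and 2.57 at 10 Gy (-0.71 ± 0.21, SE, limma adjusted p = 0.121), all lower. miR-3473b and miR-5128, below with miR-3473f, share runs with it or with each other, CUGGAGAGAUG in miR-3473b and miR-3473f and GAGAUGGCU in miR-3473b and miR-5128.
miR-3473b: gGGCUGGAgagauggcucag
miR-3473f: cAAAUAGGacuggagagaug
miR-5128: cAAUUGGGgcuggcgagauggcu
Their coordinates are chr10:41670774-41670793 (plus strand), chr1:106546536-106546555 (minus strand) and chr2:37688212-37688234 (minus strand), within the spans of Ccdc162, Bcl2 and Strbp. miR-3473b overlapped between doses, with a change of -0.003 ± 0.26 (SE), and miR-5128 had -0.29 ± 0.24 (SE). miR-5126, at the top of the range, had 4.24 and 3.88 against 3.97, 3.98, 4.35 and 3.98.

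The serum changes were set against those of small intestine and feces, which shared no arrays with serum, in 1 limma fit of all 22 arrays. Over the 193 miRNAs, the serum change differed from that in intestine for 45 (23.3%; 5 higher and 40 lower in serum) and from that in feces for 35 (18.1%; 6 higher and 29 lower). The split against intestine was 61 higher and 8 lower with normexp, and 9 and 5 against feces, so the direction over all miRNAs depends on the background correction. Without scaling the splits were 0 and 51, and 0 and 3. The counts of 45 and 35 include miRNAs at the floor on every array of the other sample, whose change there is 0 by construction. In this way miR-1955-3p passed against both samples and miR-150-3p against intestine, so the counts are not of measured differences alone. Because each sample type had its own slide, the slide cannot be told apart from the sample type. Differences are given for called miRNAs that were both detected and above the floor on at least 4 arrays of the other sample, which held for 10 of 18 pairs, and 9 of those passed. For miR-375-3p, miR-451a, miR-486a-5p, miR-344i and miR-1198-5p every feces array was at the floor of that fit. Such tied values add no spread, so the SEs and p-values of these miRNAs understate the spread of the measured arrays.

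miR-375-3p was bright in intestine, where its change was -0.18, and the serum change of 2.58 exceeded it by 2.76 ± 0.49 (SE, limma adjusted p = 0.00014). For miR-451a the changes were -3.72 in serum and 0.10 in intestine, a difference of -3.82 ± 0.69 (SE, limma adjusted p = 0.00017). Its serum change is not exact, since 1 of 4 irradiated serum arrays detected it and the value moves with the floor. miR-486a-5p differed in the same direction, by -2.05 ± 0.36 (SE, limma adjusted p = 0.00014), with 0.56 in intestine. No control intestine array and all 4 irradiated ones detected miR-486a-5p, so its intestinal change rests on dim signal. Both red cell miRNAs were thus lower in irradiated serum relative to the dose effect in gut tissue. miR-574-3p had a serum change of 2.50, which exceeded those in intestine (0.31) by 2.19 ± 0.44 and in feces (0.79) by 1.71 ± 0.44 (SE each, limma adjusted p = 0.00048 and 0.0096). The rise in feces passed by itself (limma adjusted p = 0.0443). In feces, and likewise in intestine, 1 of 4 control arrays and all 4 irradiated ones detected it. The fecal control mean of -6.36 lay near the floor of that fit, while all 8 intestine arrays were above the floor. The sizes of the fecal change and of the difference from it therefore depend on the floor.

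miR-344i had changes of -2.61 in serum and -1.32 in intestine, and miR-1198-5p -2.06 and -0.81, both below 0 in either sample. Both intestinal falls passed by themselves (limma adjusted p = 0.00013 and 0.0028). The differences between serum and intestine were -1.29 ± 0.37 and -1.24 ± 0.31 (SE each, limma adjusted p = 0.0138 and 0.0039). The size of that of miR-1198-5p is set by the floor, since no irradiated serum array detected it. With a serum change at its bound of 1.60-fold, no difference from intestine would be shown. In feces miR-7031-5p had a change of -0.29 against a fitted -2.49 in serum, a difference of -2.20 ± 0.44 (SE, limma adjusted p = 0.0012). No irradiated serum array detected it, so the size of that difference is set by the floor, and with a serum change at the bound of 1.25-fold no difference from feces would be shown. miR-30d-5p had 0.51 in feces and -1.07 in serum, a difference of -1.57 ± 0.46 (SE, limma adjusted p = 0.0179). Its difference from intestine did not pass (limma adjusted p = 0.204).

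**Figure D5:**
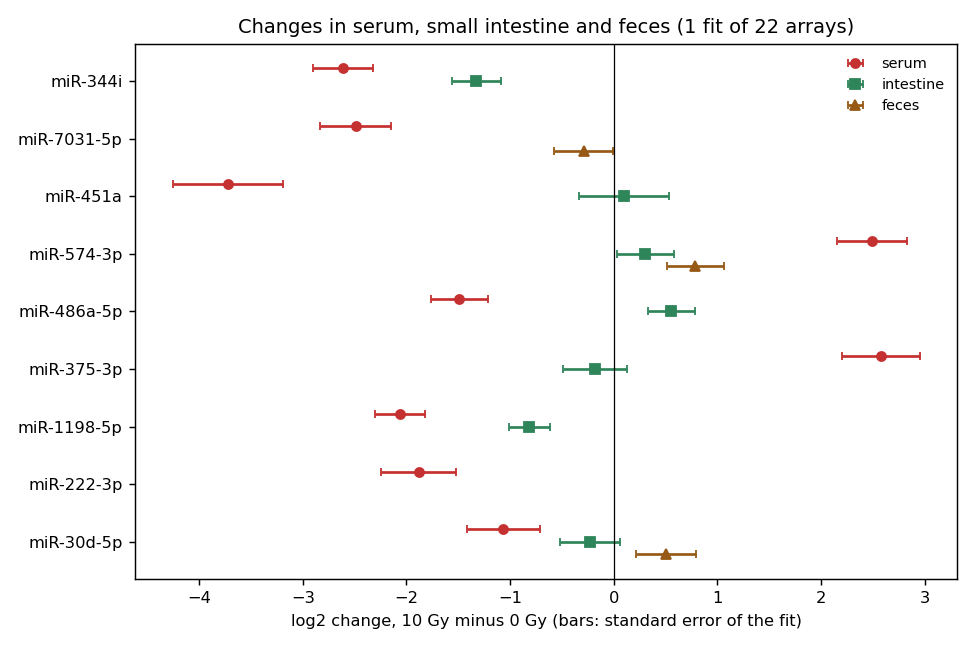
Log2 change at 10 Gy minus 0 Gy with the standard error of the fit of 22 arrays for the 9 called serum miRNAs in serum (circles), small intestine (squares) and feces (triangles), shown outside serum where both detected and above the floor on at least 4 arrays. miR-375-3p and miR-451a lie far from their intestinal changes, near 0, and miR-344i and miR-1198-5p lie below 0 in intestine too.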

How the data were processed

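Serum arrays of 2 samples at 0 Gy and 4 at 10 Gy were read from Agilent Feature Extraction output. The authors used Agilent Feature Extraction 11.5, per the submitters' processing notes, and its deposited processed signal is a background-subtracted intensity on a linear scale, which per the file headers was left without normalization between arrays. The authors' series table held intensity values within 1% of it. Depth is not defined for arrays, and no spot was saturated. Here the intensity was averaged over the non-outlying spots of a probe, summed over the probes of a miRNA, divided by the 75th percentile of the array over the 121 miRNAs detected on all 6 arrays (81 on all 22 for the fit of all samples), set to a floor and expressed as log2. Doses were compared with limma 3.58.1 (lmFit, eBayes) in R 4.3.3, Benjamini-Hochberg over the 193 tested miRNAs, and the procedure was tested on simulated data. Exact two-sided permutation tests over 15 orderings served for single values per array. Named were the called miRNAs and their other arms and seed relatives, up to 12 rises and 12 falls that did not overlap and had an unadjusted p below 0.05, tested list members, the 8 brightest and those detected at 1 dose only. The members and lists were chosen with earlier results of these data known. Alternatives of scaling, background (normexp with an offset of 50), filter, floor, probe summary, fit, slide row and left-out arrays were run. 2 alternatives, without the arrays of slide column 4 and with Agilent's total gene signal, were chosen after seeing the data.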

Additional observations from a re-analysis of the deposited data

Results flagged for a closer look

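In 4 of 52 groups of 4 irradiated serum arrays checked, 1 array lay far from the others, where chance alone gives about 1 group in 20 for values that are all measured. miR-3474 and miR-6969-5p had log2 levels of -3.27 and -3.50 in 10 Gy replicate 1, with the other 3 arrays at the floor. Tied values at the floor make any array above it stand apart, so these 2 cannot be set against that rate. miR-23a-3p stood at 1.01 in 10 Gy replicate 3, against -0.83 to -0.81 on the others. miR-5126 stood at 4.35 in the same replicate, against 3.97 to 3.98 on the others.

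For 9 pairs the dose effect in serum differed from that in another sample type by the test of the difference itself (limma, all 22 arrays). Against intestine the serum change was lower, with differences of -1.29 (miR-344i), -3.82 (miR-451a), -2.05 (miR-486a-5p) and -1.24 (miR-1198-5p) on the log2 scale, and higher by 2.19 (miR-574-3p) and 2.76 (miR-375-3p). Against feces it was lower, with differences of -2.20 (miR-7031-5p) and -1.57 (miR-30d-5p), and higher by 1.71 (miR-574-3p). No irradiated serum array detected miR-7031-5p or miR-1198-5p and 1 detected miR-451a, so the sizes and p-values of their differences depend on the floor. At its lower bound in serum, neither miR-7031-5p nor miR-1198-5p would show a difference. For miR-574-3p the fecal controls lay near the floor, so its difference from feces depends on the floor too. Every feces array was at the floor for miR-344i, miR-451a, miR-486a-5p, miR-1198-5p and miR-375-3p. These tied values add no spread to the fit, so the p-values against intestine understate the spread of the measured arrays.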

How the results depend on the processing

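With 2 control arrays, the number of calls moved widely. Against 9 calls, there were 3 without scaling (0 higher, 3 lower), 2 of 121 miRNAs detected on every serum array, 0 of 1881 without a filter (30 below an unadjusted 0.05), 26 in 1 limma fit of all 6 groups (6 higher, 20 lower), and 0 within slide row 1, within row 2 and without the 10 Gy arrays of column 4. The row fits hold 1 control each. In the fit of all 6 groups, sample types tied at the floor add no spread. Without column 4 the lowest adjusted p was 0.109 (limma), and the 9 kept their direction. Leaving out 1 array gave 2 to 18 calls, 5 and 2 without 0 Gy replicates 1 and 2, and 18, 6, 14 and 3 without 10 Gy replicates 1 to 4. The splits were 2 higher and 11 lower with the 75th percentile over all miRNAs, 5 and 8 with normexp, 3 and 6 with quantile normalization, 0 and 6 with the brightest probe or a floor multiplied by 2, and 3 and 4 with slide row as a block. miR-1198-5p reversed to 0.070 with normexp. The median change of all tested was -0.84 without scaling, -0.32 with the 75th percentile over all miRNAs and 0.15 with normexp, against -0.11.

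The replicate numbers are shared by both doses, but nothing ties replicate 1 at one dose to replicate 1 at the other. Deviations from the group means of 0 Gy replicate 1 correlated at 0.28, -0.44, 0.18 and -0.21 with those of 10 Gy replicates 1 to 4. For 0 Gy replicate 2 the sizes are the same with the sign reversed, because deviations of 2 controls from their mean mirror each other. A pairing by number cannot be read from these values. With the replicate number as a block 0 miRNAs passed (26 below an unadjusted 0.05), in a fit of 4 arrays.

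Against intestine the 45 differences became 69 with normexp and 32 to 53 with 1 array left out. Against feces the 35 became 3 without scaling, 14 with normexp, 18 without 0 Gy replicate 1, and 18 to 38 over all left-out arrays. Both main counts, 45 and 35, include miRNAs at the floor on every array of the other sample. The difference in detected miRNAs per serum array of -42.5 ranged from -64.5 to -20.5. Of 1204 single values under alternatives, 1062 kept their side of the threshold, 94 lost a call, 47 gained 1 and 1 called miRNA changed sign. Changes of sign where neither fit passed, such as that of miR-30e-5p with normexp, count among the 1062. The causes were not tested.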
